A study of Mus musculus with 6 samples.

Results

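The genes of the proteasome were followed in restimulated mouse CD4+ T cells, with the immunoproteasome set beside the constitutive subunits. Members were all genes whose symbol begins with Psma, Psmb, Psmc, Psmd or Psme and a digit, each read from its brightest probe set with 1 gene symbol, which gave 45 of 19937 genes. They comprise 31 constitutive subunits, 5 immunoproteasome genes (Psmb8, Psmb9, Psmb10, Psme1 and Psme2), 3 chaperones of 19S assembly (Psmd5, Psmd9, Psmd10), 2 other activators (Psme3, Psme4) and 2 tissue-specific subunits (Psma8, Psmb11). The remaining 2, Psmc3ip and Psme3ip1, encode no subunit and were taken in by their symbols alone.

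The cells of all arrays are described as naive CD4+ T cells of B6 mouse spleen. They were activated for 2 days with antibodies to CD3 and CD28 and then rested overnight. The anti-CD3 group (4 arrays) was restimulated through the T cell receptor complex alone, and the anti-CD3 plus anti-ICOS group (2 arrays, called the anti-ICOS arrays here) also through ICOS, a costimulatory receptor of the CD28 family. In both, antibodies were bound for 20 min and cross-linked with goat anti-hamster antibody for 8 h, and neither group was left without restimulation. The labels describe arrays of a group as biological replicates but do not say whether mice were pooled, so a p-value here covers the spread among arrays, which may be technical.

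The proteasome degrades proteins tagged with ubiquitin. Its 20S core is a barrel of outer alpha and inner beta rings, and 3 beta subunits, Psmb5, Psmb6 and Psmb7, carry the active sites. The 19S particle caps the barrel, binds ubiquitinated substrates and unfolds them with a ring of ATPases. Interferon gamma is known to induce Psmb8, Psmb9 and Psmb10, which replace the constitutive catalytic subunits in newly built immunoproteasomes, and the activator subunits Psme1 and Psme2. Immunoproteasomes are abundant in lymphocytes and shape the peptides presented on MHC class I.

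Array medians of probe set intensity lay between 109 and 114. Among all genes 1732 (8.69%) had 1 anti-CD3 array apart from the other 3 by Dixon's criterion (the gap to the nearest array as a share of the group's range), and in 1197 of these it was replicate 4. Over all genes replicate 4 correlated at 0.996 with each anti-ICOS array and at 0.982 to 0.987 with anti-CD3 replicates 1 to 3. Replicates 1 to 3 correlated at 0.995 to 0.998 with each other, so replicate 4 lay nearer the anti-ICOS arrays than its own group. The reason was not tested. Results are therefore also given without anti-CD3 replicate 4 and against that array alone. Of the 45 proteasome genes only Psmd10 had an array apart, and there it was replicate 3. T cell genes were bright on every array, with Cd3e between 12.40 and 12.81 and Cd4 between 11.95 and 12.45 on the log2 scale. Genes that define B cells and CD8 T cells were bright as well, with Cd79a between 12.10 and 12.35 and Cd8b1 between 11.49 and 11.76. Cd79a thus read inside the range of Cd4, but probe sets of different genes have no common scale. The share of B cells and CD8 T cells in the cultures was not tested.

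Adding ICOS cross-linking to CD3 cross-linking is the only contrast the labels give. None of the proteasome genes passed its test. Of the 45 genes 0 did so in either direction (limma, Benjamini-Hochberg adjusted over all genes, lowest adjusted p = 0.417, for Psma7 and Psmb10). Over all 19937 genes 0.271% were called higher and 0% lower. At an unadjusted p under 0.05, 5 of 45 proteasome genes were higher and 0 lower, against 6.24% and 5.56% of all genes.

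The differences themselves were small. Values are log2(intensity + 16), and a difference is anti-ICOS minus anti-CD3 on that scale. The 45 differences ran from -0.15 (Psmd14) to 0.28 (Psma7), with a median of 0.082, while the median over all genes was -0.031. For 44 of 45 genes the 95% interval of the difference lay within 1.5-fold in both directions. The exception was Psmb1, a beta ring subunit, whose interval reached from -0.16 to 0.59, and for all 45 the interval lay within 2-fold.

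**Figure D1:**
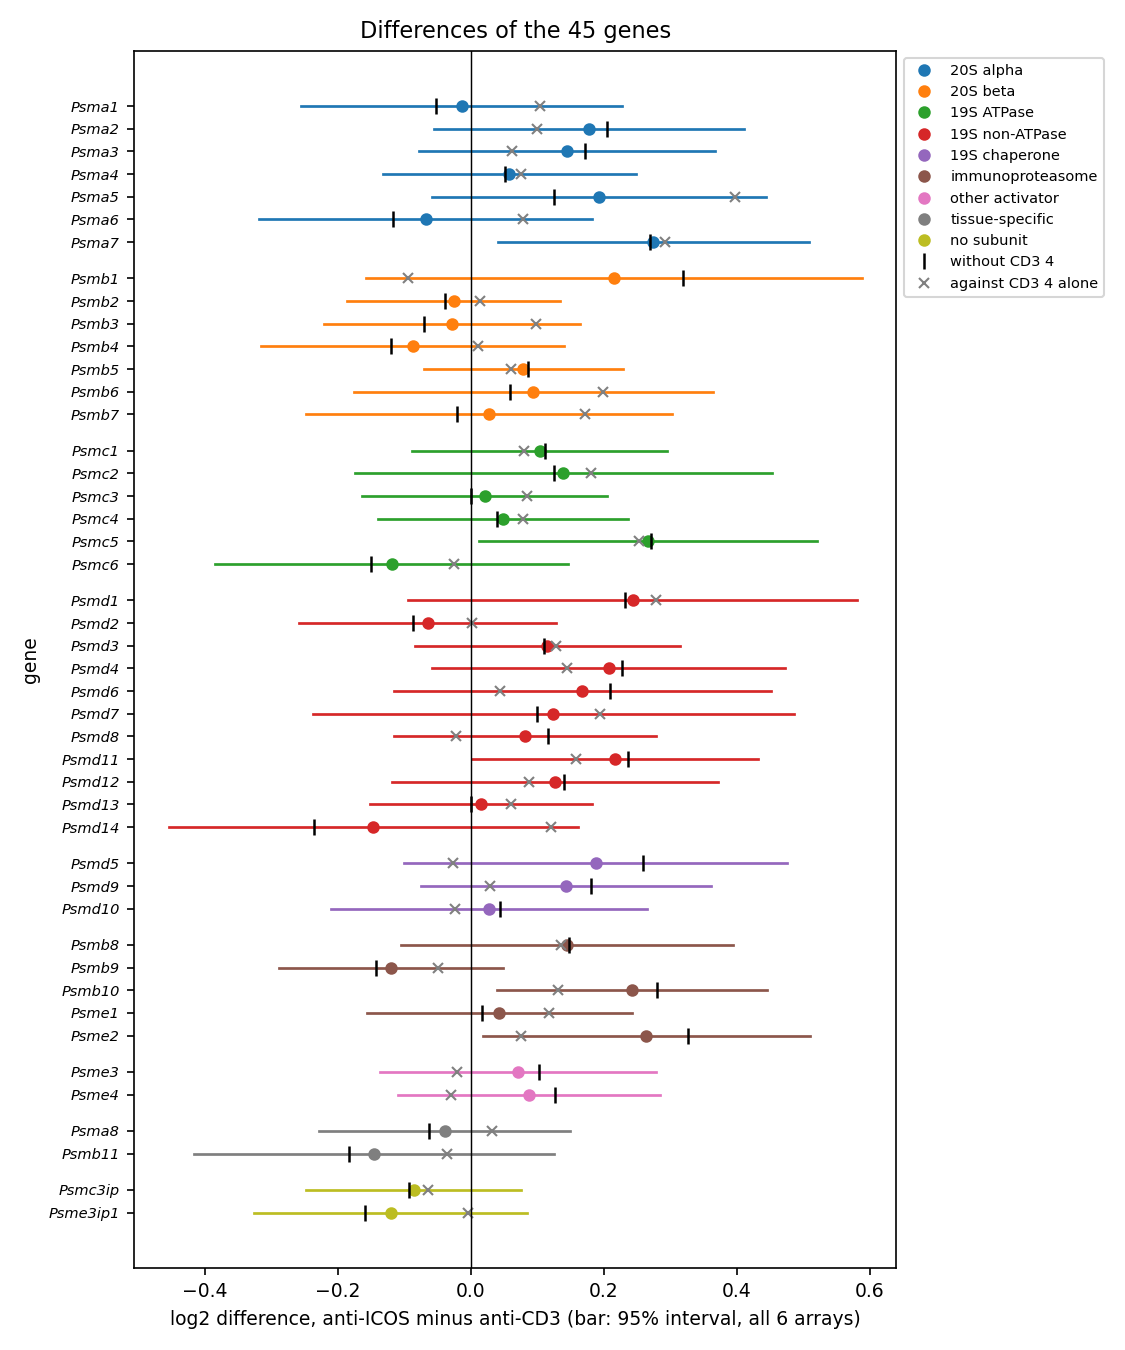
The log2 difference (horizontal axis, anti-ICOS minus anti-CD3) of each of the 45 genes, grouped by class, with its 95% interval over all 6 arrays as a bar; ticks show the difference without anti-CD3 replicate 4 and crosses the difference against that array alone. The points of the fit of all 6 arrays lie between -0.15 and 0.28, the ticks between -0.24 and 0.33 and the crosses between -0.094 and 0.40. The intervals of Psma7, Psmc5, Psmd11, Psmb10 and Psme2 lie above 0 before any adjustment for the number of genes tested.

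The immunoproteasome genes did not differ as a block. Psme2 and Psmb10 read higher with anti-ICOS, Psmb8 and Psme1 overlapped between the groups, and Psmb9 read lower. None of the 5 passed the test with all 6 arrays, and their median difference was 0.15. In 2 of the 5 the lower anti-ICOS reading exceeded the highest of the 4 anti-CD3 readings, and in 1 the order was the opposite, where 8.51% and 14.7% of all genes had such separate groups. This holds for measured transcript only, and in a bulk culture more RNA per cell cannot be told apart from more cells that carry it.

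Psme2 encodes the beta subunit of the activator ring that opens the 20S barrel. On anti-CD3 replicates 1 to 4 it read 11.50, 11.62, 11.49 and 11.79, and on the anti-ICOS arrays 11.93 and 11.80. The groups did not overlap, but anti-CD3 replicate 4 came close to the second anti-ICOS array. The difference was 0.26 ± 0.10 (SE, limma adjusted p = 0.420). Psme1, the alpha subunit of the same ring, read 11.34, 11.43, 11.22 and 11.23 with anti-CD3 and 11.37 and 11.32 with anti-ICOS. Its groups overlapped, with a difference of 0.043 ± 0.084 (adjusted p = 0.781) and a 95% interval from -0.16 to 0.24.

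Psmb10 encodes the inducible subunit that takes the trypsin-like position of Psmb7. It read 10.83, 10.69, 10.65 and 10.87 with anti-CD3, and 11.005 and 11.002 with anti-ICOS. They lay above the whole anti-CD3 range, whose mean was 10.76 ± 0.10 (SD, n = 4), and the difference was 0.24 ± 0.086 (adjusted p = 0.417). Psmb7 read 9.87, 9.75, 9.57 and 9.54 with anti-CD3 and 9.81 and 9.61 with anti-ICOS. Its groups overlapped throughout (0.028 ± 0.12, adjusted p = 0.901).

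Psmb8 encodes the inducible counterpart of Psmb5, the subunit of chymotrypsin-like activity. It read 10.90, 10.83, 10.55 and 10.77 with anti-CD3 and 10.89 and 10.93 with anti-ICOS. Anti-CD3 replicate 1 reached the anti-ICOS level and replicate 3 lay lowest, and the difference was 0.15 ± 0.11 (adjusted p = 0.485). Psmb5 had the smallest SD among anti-CD3 arrays of all 31 constitutive subunits. It read 11.66, 11.69, 11.66 and 11.70 with anti-CD3 and 11.77 and 11.75 with anti-ICOS, a difference of 0.079 ± 0.063 (adjusted p = 0.511). Both anti-ICOS arrays were above the narrow anti-CD3 range.

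Psmb9, the inducible counterpart of Psmb6 at the caspase-like site, was the immunoproteasome gene with the lower reading. It read 10.66, 10.66, 10.58 and 10.54 with anti-CD3 and 10.50 and 10.49 with anti-ICOS. Both anti-ICOS arrays were below the anti-CD3 range, with a difference of -0.12 ± 0.071 (adjusted p = 0.441) and a 95% interval from -0.29 to 0.049. Psmb6 read 9.83, 9.93, 9.58 and 9.64 with anti-CD3 and 9.90 and 9.77 with anti-ICOS. Its groups overlapped (0.094 ± 0.11, adjusted p = 0.646).

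**Figure D2:**
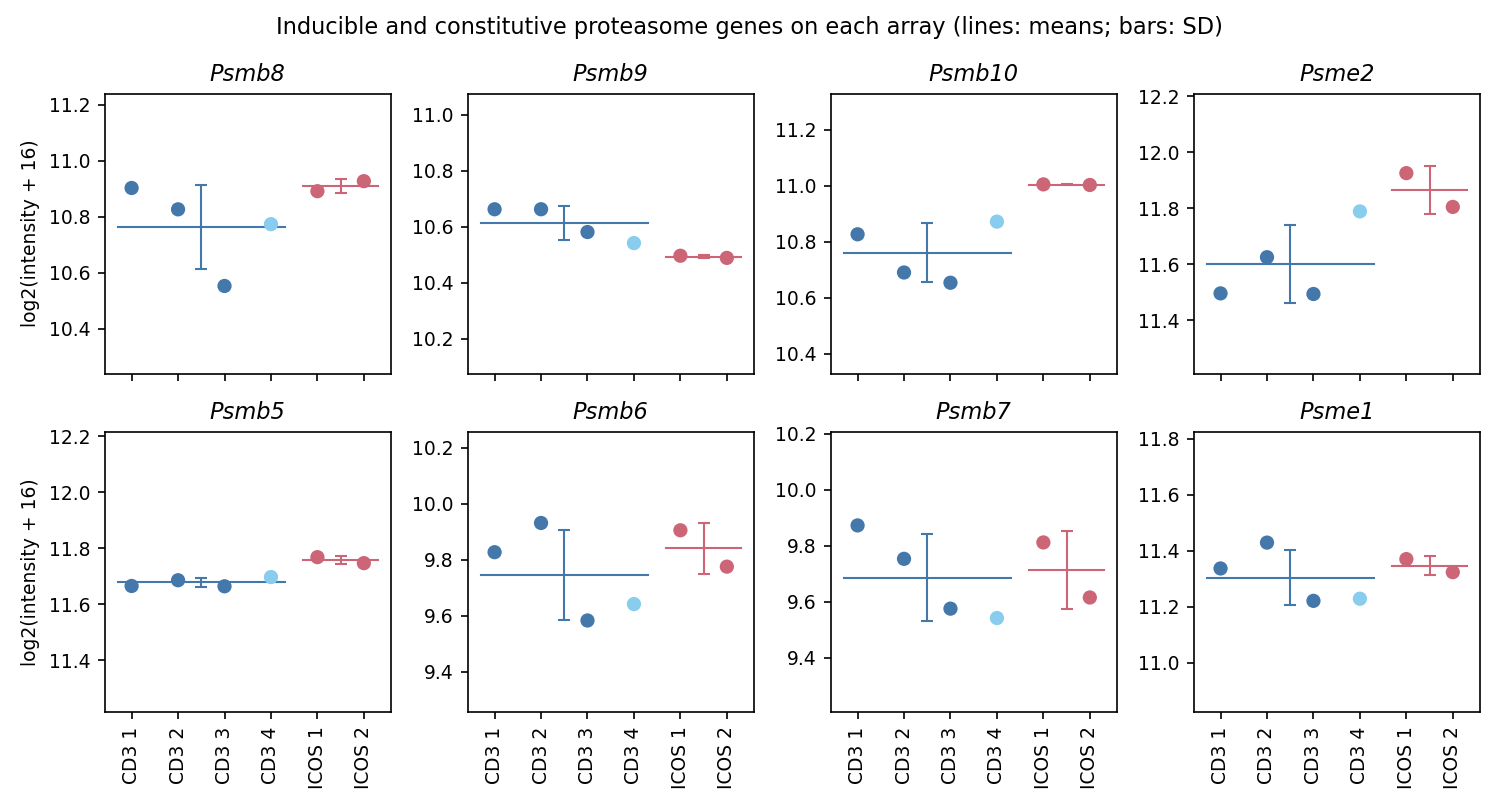
Log2(intensity + 16) on each array for the 5 immunoproteasome genes and the constitutive counterparts Psmb5, Psmb6 and Psmb7, each panel spanning 1 log2 unit; dark blue points are anti-CD3 replicates 1 to 3, light blue is replicate 4, red the anti-ICOS arrays, lines the group means and bars the SD (n = 4 and n = 2). The red points lie above every blue point for Psmb10, Psme2 and Psmb5 and below every one for Psmb9.

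Within each array, the inducible subunit was set against the constitutive one at the same active site, and 3 such log2 ratios were compared between groups. The ratio of Psmb10 to Psmb7 was 1.08 ± 0.18 (SD, n = 4) with anti-CD3 and 1.29 ± 0.14 (SD, n = 2) with anti-ICOS, a difference of 0.22 (exact permutation test, two-sided p = 0.267, adjusted p = 0.40). On anti-CD3 replicate 4 alone this ratio was 1.33, within the anti-ICOS range of 1.19 to 1.39. The ratio of Psmb9 to Psmb6 moved the other way, from 0.87 ± 0.11 (SD, n = 4) to 0.65 ± 0.086 (SD, n = 2), a difference of -0.21 (exact permutation p = 0.133, adjusted p = 0.40). That of Psmb8 to Psmb5 differed by 0.066 (exact permutation p = 0.80, adjusted p = 0.80). With 4 against 2 arrays the exact two-sided p cannot go below 0.133. Only the change of a ratio is read here, since probe sets of different genes have no common scale.

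Psmb9 and the peptide transporter gene Tap1 start 226 bases apart on opposite strands of chromosome 17 in RefSeq (GRCm38.p6), so that their upstream windows of 250 bases share 225 bases. The promoter of Psmb9 is printed because most of it is shared with the window of Tap1, from which the 2 genes run away from each other. That of Psmb8 is printed because it was the only immunoproteasome window to hold any of the motifs searched. That of Psmb5 is printed as the constitutive counterpart of Psmb8. Each runs 5′ to 3′ on the gene's own strand and ends 1 base before the RefSeq start. The Psmb9 window is chr17:34187331-34187580 on the minus strand. The Psmb8 window is chr17:34197945-34198194 on the plus strand, with a match to TTCNNNGAA, the letters of a gamma-activated site, in capitals. The Psmb5 window is chr14:54617996-54618245 on the minus strand, with a match to TGACNNNGC, the core of the antioxidant response element, in capitals.
Psmb9: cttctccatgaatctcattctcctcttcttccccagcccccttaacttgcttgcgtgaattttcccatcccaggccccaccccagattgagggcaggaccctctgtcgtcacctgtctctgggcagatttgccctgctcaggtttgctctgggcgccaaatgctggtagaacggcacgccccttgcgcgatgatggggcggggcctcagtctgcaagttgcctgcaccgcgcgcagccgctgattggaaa
Psmb8: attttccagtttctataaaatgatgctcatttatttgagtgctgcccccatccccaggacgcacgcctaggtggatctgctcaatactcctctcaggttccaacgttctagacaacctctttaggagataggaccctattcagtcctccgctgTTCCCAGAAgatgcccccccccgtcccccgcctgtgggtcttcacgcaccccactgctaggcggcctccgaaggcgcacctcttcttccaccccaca
Psmb5: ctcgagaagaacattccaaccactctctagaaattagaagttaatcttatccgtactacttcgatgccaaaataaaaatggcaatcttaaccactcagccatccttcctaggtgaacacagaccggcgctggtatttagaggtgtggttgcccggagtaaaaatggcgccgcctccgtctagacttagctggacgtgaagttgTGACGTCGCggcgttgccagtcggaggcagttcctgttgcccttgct

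The Psmb8 match stands at -97 to -89 relative to the start and the Psmb5 match at -47 to -39. Searched on both strands of all 32851 upstream windows in the table, TTCNNNGAA was held by 7.02%, TGACNNNGC by 10.2% and the core of the interferon-stimulated response element (GAAA, any 2 bases, GAAA) by 2.98%. RefSeq windows were matched for 38 of the 45 genes, all 5 immunoproteasome genes among them. A gene was counted if any of its windows held the letters, whereas the percentages are of windows. Of 25 matched constitutive subunits 4 (Psmb5, Psmb6, Psmc6 and Psmd12) held TGACNNNGC, 0 held TTCNNNGAA and 2 (Psmb3 and Psmd4) held the response element core. Such a match describes letters and not a bound site. Tap1, across the shared window from Psmb9, read 11.80, 11.85, 11.75 and 11.63 with anti-CD3 and 11.71 and 11.69 with anti-ICOS, so its groups overlapped (-0.059 ± 0.082, limma adjusted p = 0.691).

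Among the 31 constitutive subunits 0 passed the test, and the median difference was 0.094. The difference was above 0 in 23 of 31, where it was in 42.3% of all genes and in 6965 of the 11962 genes left without the dimmest 40%, which include all 31. After quantile normalization it was above 0 in 19 of 31, against 9394 of all 19937 genes and 5799 of the 11962. The constitutive and the immunoproteasome genes were not tested against each other. The groups were separate in 5 of the 31 constitutive subunits with anti-ICOS on the higher side (Psma2, Psma5, Psma7, Psmb5 and Psmd11) and in 0 with it on the lower side. Over all genes these shares were 8.51% and 14.7%.

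Among the 7 alpha ring genes, Psma1 to Psma7, differences ran from -0.068 (Psma6) to 0.28 (Psma7), with a median of 0.15. Psma7 read 8.90, 8.90, 8.80 and 8.84 with anti-CD3 and 9.29 and 8.98 with anti-ICOS. The anti-ICOS arrays were above the anti-CD3 range but lay 0.31 apart, wider than the whole anti-CD3 group, and the difference was 0.28 ± 0.099 (adjusted p = 0.417). Among the 7 beta ring genes, Psmb1 to Psmb7, the range was from -0.087 (Psmb4) to 0.22 (Psmb1), and the median was 0.028. Psmb1 read 10.10, 10.09, 9.77 and 10.40 with anti-CD3 and 10.31 and 10.30 with anti-ICOS, so that replicate 4 was the brightest array.

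The 6 ATPases of the 19S ring, Psmc1 to Psmc6, ran from -0.12 (Psmc6) to 0.27 (Psmc5), with a median of 0.077. Psmc5 read 7.83, 8.02, 7.83 and 7.91 with anti-CD3 and 8.32 and 8.01 with anti-ICOS, of which the second lay inside the anti-CD3 range (0.27 ± 0.11, adjusted p = 0.420). The 11 non-ATPase subunits were Psmd1 to Psmd4, Psmd6 to Psmd8 and Psmd11 to Psmd14, with a median of 0.12. Psmd11, a scaffold subunit of the lid, read 9.86, 9.77, 9.69 and 9.85 with anti-CD3 and 10.11 and 9.90 with anti-ICOS (0.22 ± 0.091, adjusted p = 0.421). Psmd1, a large base subunit, read 10.42 on the first anti-ICOS array and 9.89 on the second, where the anti-CD3 arrays spanned 9.83 to 10.01. Its difference of 0.24 ± 0.14 (adjusted p = 0.438) was -0.020 without anti-ICOS replicate 1. Psmd14, the deubiquitinase of the lid, read 10.98, 10.93, 10.78 and 10.54 with anti-CD3 and 10.72 and 10.60 with anti-ICOS. Replicate 4 was the lowest of the 6 arrays, and the difference was -0.15 ± 0.13 (adjusted p = 0.545).

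The subunits also differed together between arrays of 1 group. All 31 constitutive subunits read higher on anti-ICOS replicate 1 than on anti-ICOS replicate 2, where 44.5% of all genes did. The gap between these 2 arrays had a median of 0.13 over the 31 and was widest for Psmd1 at 0.53, followed by Psmd7 at 0.33 and Psma7 at 0.31. After quantile normalization it was again 31 of 31, against 48.3% of all genes. The subunits were measured on the same 2 arrays, so this is 1 observation of a pair of arrays and not 31.

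Among the anti-CD3 arrays the order was less uniform. Relative to the mean of replicates 1 to 3, the median of the 31 subunits was 0.023, 0.079 and -0.11 on replicates 1 to 3, -0.047 on replicate 4, and 0.12 and 0.011 on the anti-ICOS arrays. The second anti-ICOS array thus lay within the anti-CD3 range. Replicate 3 was the lowest anti-CD3 array in 20 of 31 subunits, against 33.5% of all genes and 50.9% of those left without the dimmest 40%, but after quantile normalization in 4 of 31, so this order rests on the scaling. Replicate 4 moved with the scaling too, to a median of -0.17 after quantile normalization. The median difference between the groups was 0.094 as deposited and 0.035 after quantile normalization, and for the 6 ATPases -0.0028.

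**Figure D3:**
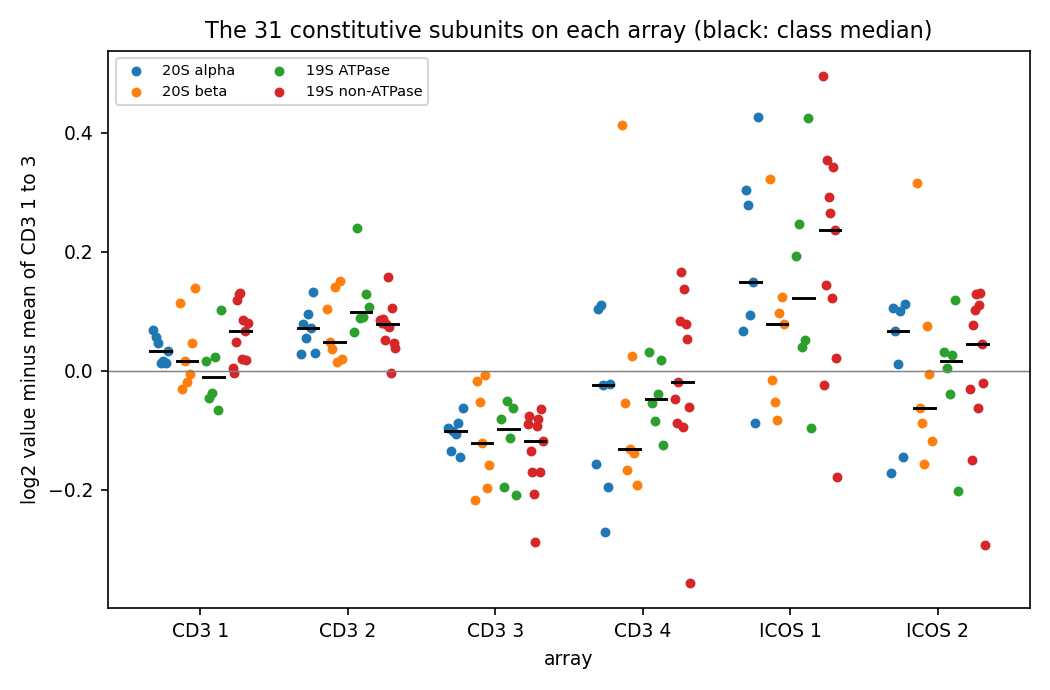
Each point is 1 of the 31 constitutive subunits on 1 array (horizontal axis), as its log2 value minus its mean over anti-CD3 replicates 1 to 3; colours give the class and black bars the class medians. In all 4 classes the median is highest on the first anti-ICOS array; over the 31 subunits the median is 0.12 there, 0.011 on the second and -0.11 on anti-CD3 replicate 3.

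The remaining members gave no call. The assembly chaperone genes Psmd5, Psmd9 and Psmd10 differed by 0.19 ± 0.12, 0.14 ± 0.092 and 0.028 ± 0.10 (limma adjusted p = 0.457, 0.456 and 0.884). Psme3, the nuclear activator, differed by 0.072 ± 0.088 and Psme4, a large single-chain activator, by 0.088 ± 0.084 (adjusted p = 0.650 and 0.567). Psma8, the alpha subunit of male germ cells, read between 5.41 and 5.59, and Psmb11, the catalytic subunit of thymic cortical epithelium, between 6.48 and 6.93. Both lay in the dimmest 40% of genes, where an offset of 16 compresses differences, and their differences were -0.039 ± 0.080 and -0.15 ± 0.11. Psmc3ip, a meiotic recombination factor, differed by -0.086 ± 0.069 and Psme3ip1 by -0.12 ± 0.087.

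Treatment of anti-CD3 replicate 4 changed which genes passed. Without that array, Psme2 was higher by 0.33 (limma adjusted p = 0.0153) and Psmb10 by 0.28 (adjusted p = 0.0250), and these 2 of 45 genes were the only ones called, 2 higher and 0 lower. The background then was far larger, with 17.1% of all genes called higher and 12.7% lower (29.7% in all), so 2 of 45 is a smaller share than that of all genes. No constitutive subunit was called there (0 of 31), and the median difference was 0.10. Against replicate 4 alone, Psme2 differed by 0.076 and Psmb10 by 0.13, and 0 of 45 genes were called, where 0.176% of all genes were called higher and 0% lower. That reference is 1 array, assumed to vary like anti-CD3 replicates 1 to 3 and the anti-ICOS arrays, so its lack of calls supports nothing on its own. Replicate 4 itself stood 0.25 above replicates 1 to 3 for Psme2 and 0.15 above for Psmb10, on the side of the anti-ICOS arrays, and 0.41 above for Psmb1. Relative to them it stood at -0.36 for Psmd14 and -0.27 for Psma5. With array quality weights, which gave anti-CD3 replicate 1 a weight of 4.53 and replicate 4 one of 0.15, 6 of 45 genes were higher and 4 lower, against 22.8% and 24.4% of all genes (47.2% in all).

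Genes that assemble and regulate the proteasome included a few with larger differences. Of 22 measured genes on this list, out of 30 symbols listed, 0 passed with all 6 arrays, and the median difference was 0.13. At an unadjusted p under 0.05, 1 was higher and 1 lower, against 6.24% and 5.56% of all genes. Nfe2l1, which encodes a transcription factor known to drive proteasome subunit genes, read 9.39, 9.42, 9.45 and 9.71 with anti-CD3 and 9.78 and 9.85 with anti-ICOS. Both anti-ICOS arrays were above the anti-CD3 range, with replicate 4 the nearest (0.32 ± 0.10, adjusted p = 0.414). Zfand5, a protein that binds the proteasome, differed by 0.36 ± 0.15 and Psmg1, a chaperone of 20S assembly, by -0.34 ± 0.14 (adjusted p = 0.421 for each). Without replicate 4, 6 of the 22 were higher and 2 lower, where 17.1% and 12.7% of all genes were, among them Nfe2l1 by 0.39 (adjusted p = 0.00386), Zfand5 by 0.44 (adjusted p = 0.0264) and Psmg1 by -0.42 (adjusted p = 0.0235). Against replicate 4 alone, where 0.176% of all genes were called, 0 of the 22 were, and the median was -0.018.

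On the list of MHC class I antigen processing, the pathway that immunoproteasome products feed, 0 of 10 measured genes passed, and the median was 0.11. At an unadjusted p under 0.05, 2 were higher and 0 lower, against 6.24% and 5.56% of all genes. Nlrc5, the transactivator of MHC class I genes, read 11.25, 11.44, 11.31 and 11.58 with anti-CD3 and 11.67 and 11.64 with anti-ICOS (0.26 ± 0.10, adjusted p = 0.417). The transporter gene Tap2 differed by 0.26 ± 0.11 and the peptide loading chaperone gene Calr by 0.13 ± 0.064 (adjusted p = 0.421 and 0.423). Without replicate 4, 4 of the 10 were higher and 0 lower (17.1% and 12.7% of all genes), and against it alone 0 were called (0.176% of all genes). B2m, the light chain of MHC class I, spanned 13.34 to 13.42 over all 6 arrays.

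Differences of interferon gamma signal genes had a larger median than those of the proteasome genes. Of 12 measured genes 0 passed with all 6 arrays, and the median was 0.46. At an unadjusted p under 0.05, 7 were higher and 0 lower, against 6.24% and 5.56% of all genes. In 9 of 12 the groups were separate with anti-ICOS on the higher side and in 0 on the lower, against 8.51% and 14.7%. Ifng itself read 6.84, 7.05, 6.81 and 8.02 with anti-CD3 and 8.76 and 8.37 with anti-ICOS. Replicate 4 lay between the other anti-CD3 arrays and the anti-ICOS arrays, and the difference was 1.39 ± 0.34 (adjusted p = 0.327). Socs1, an inhibitor of cytokine signalling that interferon gamma induces, differed by 0.85 ± 0.17 and the kinase gene Jak2 by 0.25 ± 0.068 (adjusted p = 0.185 and 0.389). Without replicate 4, 7 of the 12 were higher and 0 lower, beside 17.1% and 12.7% of all genes, and against it alone 0 were called, beside 0.176%. The difference between this list and the immunoproteasome genes was not tested.

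**Figure D4:**
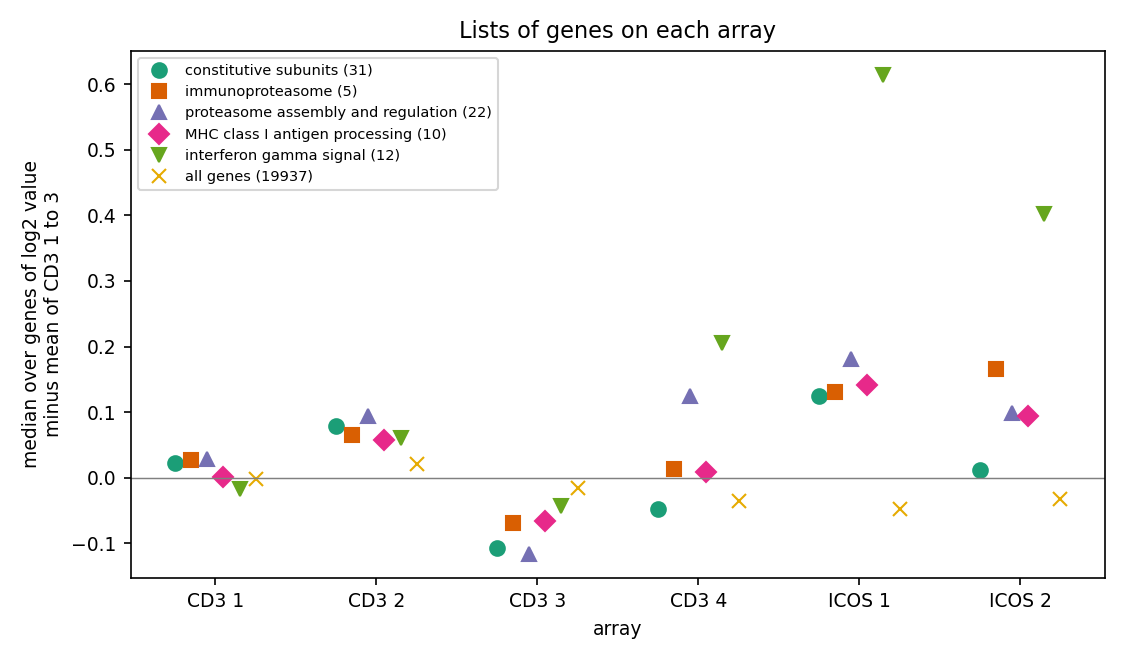
For each array (horizontal axis), the median over the genes of a list of log2 value minus the mean of anti-CD3 replicates 1 to 3; numbers in the legend count the measured genes. Interferon gamma signal genes reach 0.61 and 0.40 on the anti-ICOS arrays, while the immunoproteasome genes stay at 0.13 and 0.17 and the constitutive subunits at 0.12 and 0.011.

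Markers of other cells were read on the same arrays, and 1 of them passed the test with all 6 arrays. Over all genes 0.271% were called higher and 0% lower there, while 8.51% were separate and higher and 14.7% separate and lower. Of 6 dendritic cell markers Flt3 was called higher (1.26 ± 0.087, limma adjusted p = 0.00321) and 4 had separate groups with anti-ICOS on the higher side and 1 on the lower. The list's mean log2 value was 6.52 to 6.71 with anti-CD3 and 7.07 to 7.13 with anti-ICOS. Of 6 monocyte and macrophage markers 0 were called and 2 were separate and higher, with means of 6.65 to 7.28 and 7.34 to 7.73. Of 5 neutrophil markers 0 were called and 3 were separate and higher (6.12 to 6.38 and 6.53 to 7.24). Of 5 mast cell and basophil markers 0 were called and 4 were separate and higher (5.73 to 5.84 and 6.18 to 6.52). Ms4a2, 1 of those 4, differed by only 0.092 and read 5.13 to 5.27 over all 6 arrays, dimmer than Psma8. Of 5 NK cell markers 0 were called and 2 were separate and higher (7.15 to 7.43 and 7.59 to 7.63). Of 4 B cell markers 0 were called and 0 separate (11.40 to 11.75 and 11.60 to 11.75), and of 2 CD8 markers likewise 0 and 0 (10.74 to 11.04 and 10.90 to 10.97). Of 7 T cell markers 0 were called and 3 were separate and lower, with means of 11.87 to 12.00 and 11.77 to 11.85. Without anti-CD3 replicate 4, 4 of 6 dendritic cell, 4 of 6 monocyte and macrophage and 3 of 5 neutrophil markers were called higher. So were 3 of 5 NK cell, 3 of 5 mast cell and basophil, 2 of 4 B cell and 0 of 2 CD8 markers, and 0 on these lists were lower. Of the 7 T cell markers 0 were then higher and 2 (Cd3e and Cd4) lower. In that fit 17.1% of all genes were higher and 12.7% lower. No marker was listed at 0, since the lowest value in the table is 7.23, and the part of these cells in the values of Psme2 and Psmb10 was not tested.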

How the data were processed

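Total RNA (1 ug per the labels' protocols) of 6 samples was hybridised to Affymetrix Mouse Gene ST arrays of 1 colour. The authors deposited linear intensities, 1 per probe set, that run from 7.23 to 22176. The submitters' processing notes name MAS5 alone; how arrays were scaled and background was corrected is not given in the sources used here. Of 34760 probe sets 21640 carried 1 gene symbol, 1321 several and 11799 none. A gene was read from its brightest 1-symbol probe set, as log2(intensity + 16), without a filter.

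Groups came from the sample titles. The comparison used lmFit and eBayes of limma (version 3.58.1, under R 4.3.3) with 4 residual degrees of freedom over 19937 genes, two-sided, with Benjamini-Hochberg adjustment and 0.05 as the threshold. The number of arrays limits the precision. The fit was tested on simulated data with independent noise of equal spread in both groups and 200 genes changed by 2-fold or more. It recovered 97.0% of the 2-fold changes, with 11.6 false calls per run. The simulation held no array like anti-CD3 replicate 4 and no smaller changes, so it does not cover differences of the size seen in the proteasome genes. Ratios of inducible to constitutive subunits were compared by exact permutation. Members, classes, lists and motifs were chosen with earlier results of these data known. Genes named are the immunoproteasome genes and their counterparts, members outside the main classes, in each class those of smallest p, largest rise and largest fall, and in each pathway list the 3 of smallest p; Tap1, B2m, Psma5, Psmd7 and single marker genes were added after their values were seen. Alternatives were quantile normalization, offsets of 1 and 64, leaving out the dimmest 40% of genes, averaging all probe sets of a gene, a trended and robust prior, array weights, replicate number as a block, anti-CD3 replicate 4 as the only reference (replicates 1 to 3 as a group of their own, adding to the spread only) and each array left out. The order of arrays after quantile normalization was an alternative chosen after seeing the data. Promoters and positions are RefSeq's. Python 3.11.15 with matplotlib 3.10.9 made the plots.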

Additional observations from a re-analysis of the deposited data

Results flagged for a closer look

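Psmd10, the assembly chaperone gankyrin, read 9.31 on anti-CD3 replicate 3 against 9.55 to 9.58 on the other 3 anti-CD3 arrays, a gap of 0.89 of the group's range. It was the 1 proteasome gene of 45 (2.22%) with an array apart from its group, where 8.69% of all genes had such an array. Chance alone flags about 1 group in 20.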

How the results depend on the processing

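With all 6 arrays 0 proteasome genes were called higher and 0 lower, and this held under quantile normalization, offsets of 1 and 64, the filter on dim genes (which kept 43 of the 45), the mean of probe sets, the trended and robust prior and anti-CD3 replicate 4 as the only reference. With array weights 6 were higher and 4 lower, of 4543 and 4870 among all genes. Leaving out 1 array gave 0 to 2 higher and 0 lower, and 16 to 3404 genes higher and 0 to 2526 lower over all genes; the 2 were Psmb10 and Psme2 without anti-CD3 replicate 4. Over all genes 54 were higher, 28 with an offset of 64 and 35 with replicate 4 as the only reference. With replicate number as a block 3 proteasome genes were higher and 2 lower, of 3389 and 3162 in all. The numbers are not known to pair the arrays, since deviations from the group means correlated at -0.039 for replicate 1 and 0.10 for replicate 2.

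The median of the immunoproteasome genes, 0.15, was 0.045 with array weights and 0.045 with the replicate block, and 0.075 to 0.19 with 1 array left out, lowest without anti-CD3 replicate 3. That of the constitutive subunits, 0.094, was 0.035 after quantile normalization and 0.028 with the replicate block, and 0.023 to 0.15 with 1 array left out: 0.023 without anti-ICOS replicate 1, 0.15 without anti-ICOS replicate 2 and 0.040 without anti-CD3 replicate 3. The Psmb10 to Psmb7 ratio differed by -0.040 against replicate 4 alone. Among single genes, 25 of 388 values over 26 genes changed sign, 17 passed the threshold that did not before and 346 did neither; the cause was not tested. Against replicate 4 alone they were Psme3 (-0.020), Psme4 (-0.029), Psma8 (0.032), Psmd5 (-0.027), Psmd10 (-0.024), Psma6 (0.079), Psmb1 (-0.094), Psmb4 (0.012) and Psmd14 (0.12). Quantile normalization gave Psmb7 -0.050, Psma8 0.043 and Psmd10 -0.059, array weights Psmb7 -0.11 and Psmd10 -0.022, and the replicate block Psme1 -0.036, Psmb6 -0.039, Psmb7 -0.099 and Psmd10 -0.044. With 1 array left out the range was -0.071 to 0.13 for Psmb7, -0.13 to 0.053 for Psma8, -0.037 to 0.087 for Psmd10 and -0.020 to 0.51 for Psmd1.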

Other observations

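One probe set carries both Psme2 and its retrocopy Psme2b and was used in no comparison. It read 11.13, 10.95, 10.97 and 11.46 on anti-CD3 replicates 1 to 4 and 11.53 and 11.46 on the anti-ICOS arrays, so that replicate 4 lay beside the second anti-ICOS array. For 5 subunits several probe sets carry the same symbol. Those of Psma3 differed by 0.14, 0.24 and 0.22, those of Psma5 by 0.19 and 0.16, those of Psmb3 by -0.028 and 0.0034, those of Psmc1 by 0.10 and 0.12 and those of Psmd2 by -0.065 and -0.16, with the brightest given first.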
